A study of Mus musculus with 2 samples.

Results

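Unnamed intergenic loci are stretches of the mouse genome that the deposited table of this study lists without a gene name. They lie more than 10000 bp from every named locus of the same table. Being listed does not show that a locus was transcribed here, since 15 of them stood at 0 in both libraries. The rule uses 2 columns only, the gene name and the genomic interval, and not abundance, strand or the ratio between libraries. It was set with earlier results of these data known. The loci themselves can have been assembled from reads of this study, and the annotation used with them is not stated. Of 23672 loci, 2040 (8.62%) met the rule. Of the other unnamed loci, 1613 lay within 10000 bp of a named locus and 9237 overlapped one, and 10782 loci were named. "Intergenic" here means away from the named loci of this table, and a gene that the table does not list can lie closer.

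Poly(A) RNA was taken from skeletal muscle of the thigh of mice of the hybrid strain B6C3F1 at 26 months of age. One library (control) came from mice on the control diet, and the other (CR) from mice kept for 25 months on calorie restriction, with about 40% fewer calories from an enriched diet. Each group has 1 library, so no difference below has a replicate check and no p-value is given. Neither the number of mice behind a library nor their sex is stated in the labels. Values are FPKM, fragments per kilobase of transcript, scaled to the mapped fragments of a library, and the depth behind them is unknown. All loci together sum to 12758512 FPKM in control and 13608849 in CR, far above what this unit usually gives, for which the sources used here give no reason. Levels and shares of summed FPKM are therefore read only against other loci of this table. A ratio divides CR by control after 1 FPKM is added to each, and is given as log2, which understates differences of low loci. In each pair of FPKM values, control comes first and CR second.

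Transcription outside known genes has several known sources. Long noncoding RNAs are spliced and polyadenylated transcripts with little coding potential, many of them expressed in few tissues. Processed pseudogenes are copies of messenger RNAs inserted back into the genome, so that reads of an abundant gene can also align to its copy. Short tandem repeats, small RNA genes and nuclear copies of mitochondrial DNA are further places where assembled fragments collect. In skeletal muscle a few contractile and metabolic messenger RNAs make up much of the RNA. A strand sign in a library that does not record strand is usually taken from the splice sites of reads that span an intron, so a locus without a sign is usually unspliced.

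The tissue label was checked with 7 muscle markers, among them skeletal actin Acta1 and myoglobin Mb. They stood between 20495 and 372424 FPKM in control and between 29963 and 354522 FPKM in CR. Markers of other cell types differed between the libraries as well. The 6 white adipocyte markers summed to 3852 and 18355 FPKM, the 3 brown adipocyte markers to 38.5 and 531 FPKM, with Ucp1 and Otop1 listed at 0 in control, and the 2 of 3 listed erythroid markers to 16189 and 48622 FPKM. The 5 tendon markers summed to 1691 and 998.7 FPKM. The 3 of 4 listed neutrophil markers summed to 100 and 809 FPKM, with S100a8 at 0 in control, and 1 of 4 keratinocyte markers was listed, at 16.5 and 43.1 FPKM. The part of these cell types in the results below was not tested, and in bulk tissue fewer cells of a type and less RNA per cell cannot be told apart.

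Most intergenic loci were short and had no strand sign. The median interval was 555 bp, the middle 50% ran from 287 to 993 bp, and the extremes were 65 and 296678 bp. Named loci had a median interval of 22881 bp, unnamed loci within 10000 bp of one had 786 bp and unnamed loci overlapping one had 267 bp. Intervals include introns and are not transcript lengths. No strand sign was given for 1768 of the intergenic loci (86.7%), while 132 carried a plus and 140 a minus. The share without a sign was 92.6% among unnamed loci within 10000 bp, 10.6% among those overlapping a named locus and 0% among named loci. Loci with a sign were longer, with a median of 2548 bp against 502.5 bp. All 50 intergenic loci of 10000 bp or more had a sign, 24 plus and 26 minus, and so did 166 of the 278 of 1600 bp or more.

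**Figure D1:**
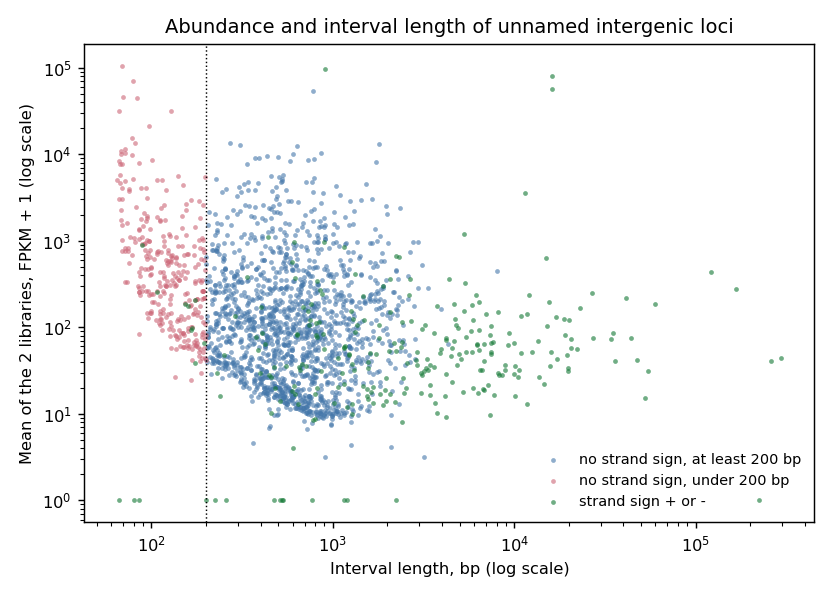
Interval length in bp (log scale) against the mean FPKM of the libraries plus 1 (log scale) for each of the 2040 unnamed intergenic loci, coloured by strand sign and length. The dotted line marks the 200 nt fragment length of the protocol. Loci left of it reach the highest values, the lower edge of the cloud falls as the interval grows, and loci with a strand sign lie mostly to the right.

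The median intergenic locus stood at 95.4 FPKM in control and 96.9 FPKM in CR. These medians lie below those of named loci (224 and 225 FPKM) and above those of unnamed loci within 10000 bp (34.8 and 31.3 FPKM) or overlapping a named locus (62.2 and 45.7 FPKM). The middle 50% of intergenic loci ran from 34.9 to 312 FPKM in control and from 24.5 to 350 FPKM in CR. A few loci stood far above this range: 205 had at least 1000 FPKM in control and 235 in CR. The 10 highest held 34.4% of all intergenic FPKM in control and 39.1% in CR.

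Abundance and interval length were linked. The 100 loci of 65 to under 100 bp had medians of 934 and 1067 FPKM, the 219 of 100 to under 200 bp had 253 and 264 FPKM, and the 663 of 400 to under 800 bp had 69.6 and 74.0 FPKM. Across the 2040 loci Spearman's rho of interval length and FPKM was -0.27 in control and -0.17 in CR, given as a description, since FPKM is itself divided by length. Intervals under 200 bp are shorter than the fragments of the protocol, which were near 200 nt, and the smallest are shorter than the 76 bp reads. FPKM of such loci rest on a correction for length that is largest there, so their levels are uncertain. These 319 loci held 41.9% of the intergenic FPKM in control and 42.5% in CR. In the whole table the intergenic loci held 11.0% of summed FPKM in control and 14.2% in CR, and 6.37% and 8.17% with only intervals of at least 200 bp counted.

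The most abundant intergenic locus by the mean of the libraries was a 69 bp interval on chromosome 11 (108872955 to 108873023, mm9) between Axin2 and Gna13, at 51007 FPKM in control and 159373 in CR, a fold of 3.12. Next came an interval of 911 bp on the minus strand of chromosome 12 (102459923 to 102460833) between Smek1 and Fbln5, at 80842 and 113727 FPKM. Of its flanking genes, Smek1 had 390 and 397 FPKM, and Fbln5 had 135 and 249 FPKM. A locus without a strand sign covers nearly the same interval (102459922 to 102460831) and was listed at 147 and 1965 FPKM. Reads of these overlapping loci cannot be told apart, so neither value is certain. The RefSeq gene table of the later build GRCm38 places 9 genes between Smek1 and Fbln5. They are 6 pseudogenes, among them Gm18848 (810 bp) and Mylf-ps (709 bp), the genes Catsperb and Tc2n and a small nuclear RNA. Whether the locus is any of these was not tested, because coordinates of the builds cannot be compared here.

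Both loci of the mitochondrial genome are members, as no named locus lies on that chromosome. They cover it on the plus strand (21 to 16284; 57901 and 104224 FPKM) and on the minus strand (19 to 16263; 41858 and 71609 FPKM). They overlap throughout, and the described kit does not mark strand, so each value is uncertain. An unsigned 776 bp interval on chromosome 3 (57166386 to 57167161) between Tm4sf1 and Wwtr1 stood at 48910 and 57575 FPKM. The other 7 unsigned intervals among the 12 most abundant loci were 66 to 129 bp long. They lie on chromosome 6 (3150764 to 3150842; 61293 and 79897 FPKM), on chromosome 1 between Camsap1l1 and Ddx59 (138261460 to 138261529; 35526 and 55831 FPKM) and on the X chromosome (3846729 to 3846811; 52428 and 37148 FPKM). Another 2 lie on chromosome 2, between Ccdc3 and Cdc123 (5300359 to 5300424; 27604 and 35508 FPKM) and between Ddx31 and Ttf1 (28789720 to 28789848; 23336 and 39224 FPKM). The last 2 lie on chromosome 3 between Plrg1 and Tlr2 (82928022 to 82928118; 16165 and 25839 FPKM) and on chromosome 7 between Synm and Igf1r (74928189 to 74928266; 4600 and 26282 FPKM). Of these 12 loci, 11 were higher in CR and the X-chromosomal interval was lower, and 2 lay past 2-fold, those on chromosomes 11 and 7. The 12 together summed to 501468 and 806236 FPKM, a ratio of 1.61, and the other 2028 loci summed to 897432 and 1124672 FPKM, a ratio of 1.25.

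**Figure D2:**
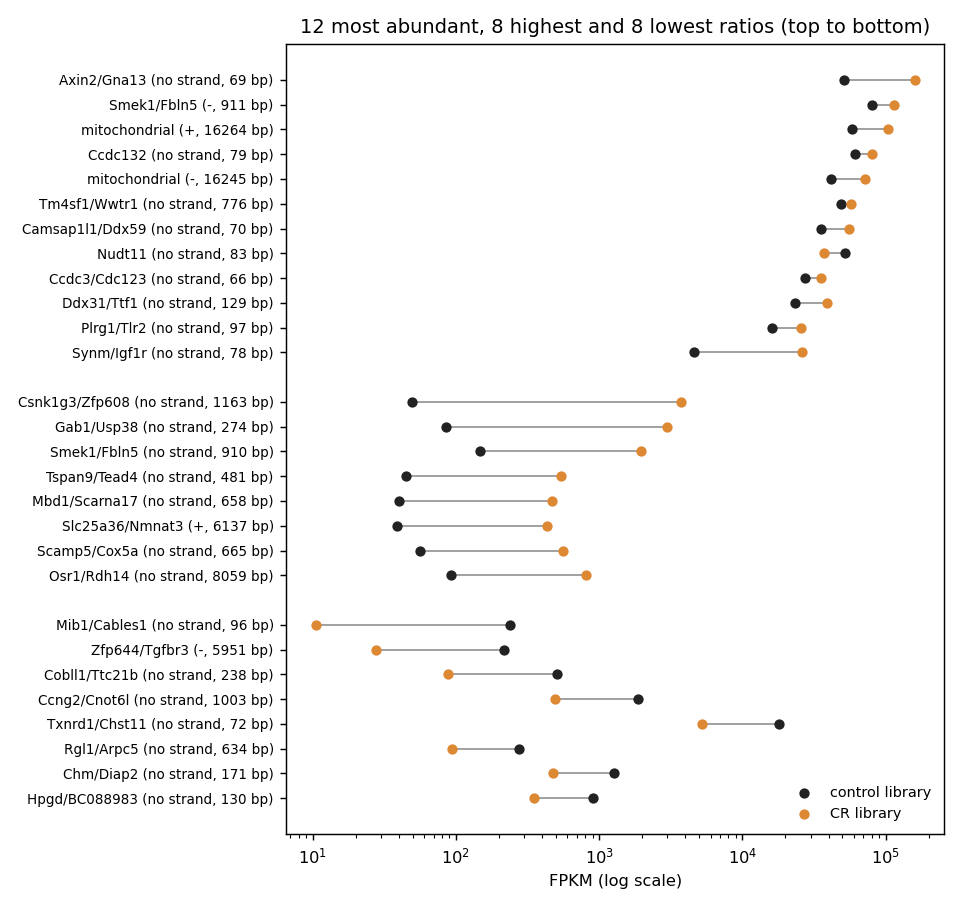
FPKM (log scale) in control (black) and the CR library (orange) for the 12 most abundant unnamed intergenic loci (top block) and for the 8 highest (middle) and 8 lowest (bottom) ratios among loci above 0 in both libraries whose mean reached 100 FPKM. Labels give the flanking named loci, the strand sign and the interval length; in the top block the orange point lies to the right in all but the Nudt11 row.

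Many intergenic loci were listed at 0 in 1 library, and far more often in CR. There were 421 loci with a value in control and 0 in CR, 135 the other way round and 15 at 0 in both. As shares of the intergenic loci, 7.35% were listed at 0 in control and 21.4% in CR, against 6.82% and 15.6% of all loci of the table and 2.32% and 4.30% of named loci. The other unnamed loci had more zeros still, with 8.74% and 36.0% within 10000 bp of a named locus and 11.6% and 23.9% overlapping one. No fold is given for any such locus, because a value of exactly 0 may stand for an estimate that failed. Zeros were mostly those of low or short loci. Of 766 intergenic loci with an interval of at least 200 bp and a mean of at least 100 FPKM, 1 was listed at 0 in a library. Of 257 loci under 200 bp with such a mean, 71 were, and of 436 loci of any length with a mean of 1 to 30 FPKM, 326 were. The 4 highest loci listed at 0 in control were 66 to 81 bp long, and the first of them lies on chromosome 3 between Pxmp3 and Pkia (6450947 to 6451012; 0 and 16515 FPKM). The 4 highest listed at 0 in CR were 65 to 73 bp long, and the first of them lies on chromosome 14 between Pou4f1 and Rbm26 (105114990 to 105115054; 10189 and 0 FPKM).

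**Figure D3:**
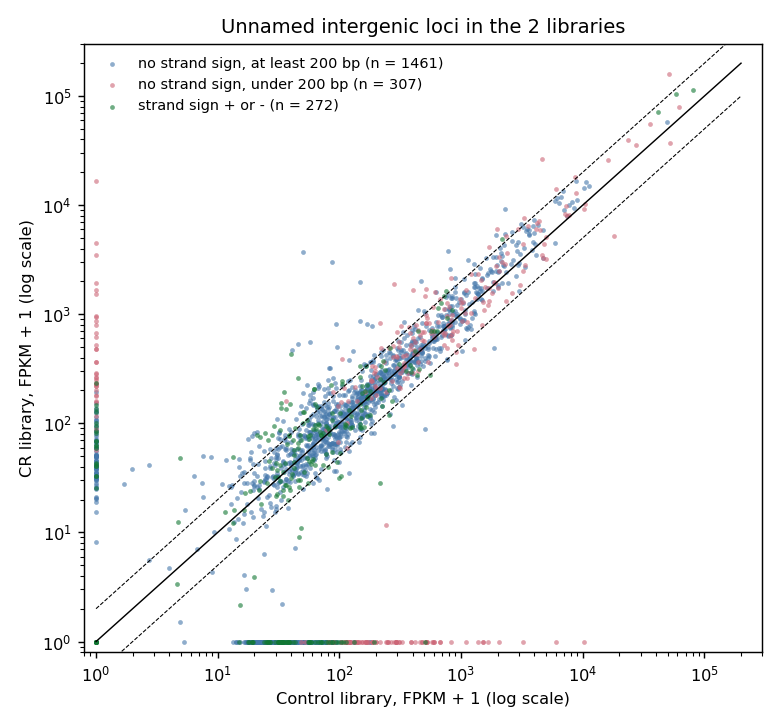
FPKM + 1 in control (horizontal, log scale) against the CR library (vertical, log scale), a point for each of the 2040 unnamed intergenic loci, coloured by strand sign and interval length. The solid line marks equal values and the dashed lines 2-fold; points on the axes are the loci listed at 0 in 1 library, more of them on the horizontal axis (421) than on the vertical (135).

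The direction of the difference between the libraries depended on whether these zeros were counted. With a mean of at least 1 FPKM, 313 of 2025 intergenic loci (15.5%) were at least 2-fold higher in CR, where the background over all loci was 12.8%. At least 2-fold lower were 466 (23.0%), where the background was 22.2%. Both shares lay close to the background. These counts take in all loci listed at 0 in 1 library, 135 of the 313 and 421 of the 466, which passed 2-fold through the zero alone. The median log2 ratio was 0.035, and it was -0.045 after the columns were rescaled to equal sums without the 50 most abundant loci, a scaling that lowers ratios by 0.08. The median over all loci was -0.09.

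Among loci above 0 in both libraries the intergenic loci leaned to CR, and so did unnamed loci within 10000 bp of a named locus. This filter takes out 421 intergenic loci at 0 in CR alone and 135 at 0 in control alone. It thus removes more lower than higher calls, and its part in the lean was not tested. Of the 1469 intergenic loci kept, 178 (12.1%) were at least 2-fold higher in CR, near the background of 11.0% over all loci. At least 2-fold lower were 45 (3.06%), where the background was 11.4%. Their median log2 ratio was 0.16 (fold 1.11), and 913 loci lay above 0 and 556 below. Of 10077 named loci kept in the same way, 615 were higher and 687 lower, with a median of -0.02. Of 895 unnamed loci within 10000 bp, 82 were higher and 33 lower, with a median of 0.17, so the lean was not particular to the intergenic loci. Those overlapping a named locus had 1235 higher and 1417 lower of 6726, with a median of -0.05. After the rescaling the medians were 0.08 for the intergenic and -0.10 for the named loci. With a mean of at least 100 FPKM added, a filter joined after the values were seen, 110 of 951 intergenic loci (11.6%) were at least 2-fold higher and 17 (1.79%) at least 2-fold lower, where the backgrounds were 7.81% and 7.57%. Their median log2 ratio was 0.18, and 0.10 after the rescaling. Among the 951, intervals of at least 200 bp gave 86 higher and 12 lower of 765. At that length and level the filter on zeros took out 1 locus. Higher loci made up 40.2% of all calls, 79.8% of calls among loci above 0 in both libraries and 86.6% with both filters.

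The lean was widest among abundant loci. Of 216 intergenic loci above 0 in both libraries whose mean reached 1000 FPKM, 35 (16.2%) were at least 2-fold higher in CR and 2 (0.926%) at least 2-fold lower, with a median log2 ratio of 0.47. The backgrounds of that band were 8.33% higher and 3.12% lower. Named loci of that band stood at 5.44% and 2.13%, with a median of 0.07. Of 142 intergenic loci in this band with an interval of at least 200 bp, 121 were above 0 on the log2 scale and 21 below, with a median of 0.49. In the bands of 30 to 100, 100 to 300 and 300 to 1000 FPKM the intergenic medians were 0.09, 0.13 and 0.10. Unnamed loci within 10000 bp of a named locus had a median of 0.50 in the highest band, over 35 loci, and those overlapping a named locus had 0.02 over 349. With 1 library per group these differences between classes could not be tested.

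**Figure D4:**
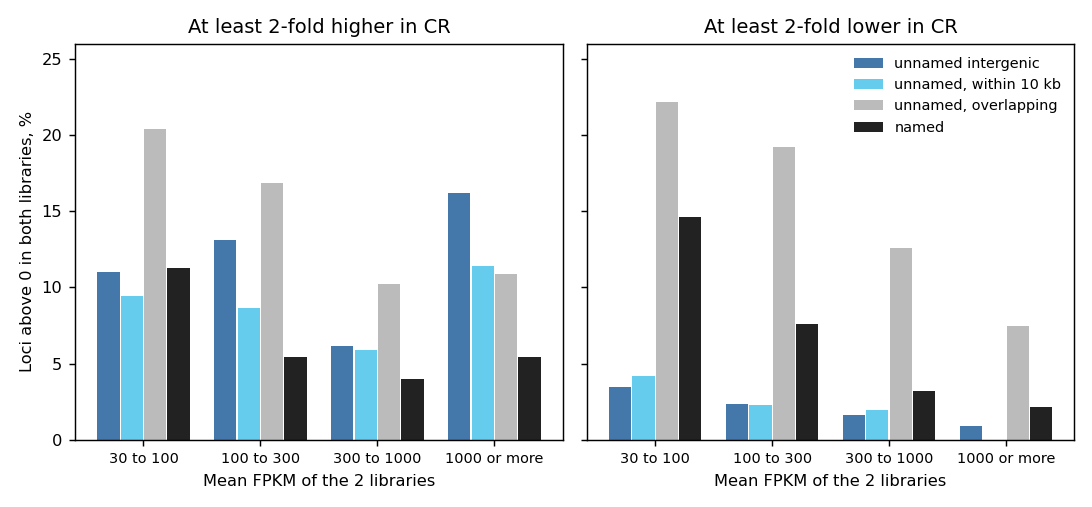
Percent of loci above 0 in both libraries that were at least 2-fold higher (left) or lower (right) in CR, by band of mean FPKM and class of locus. The dark blue bars of the intergenic loci stand at 16.2% on the left and 0.926% on the right in the band of 1000 FPKM or more, where the named loci (black) stand at 5.44% and 2.13%.

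The highest ratios belonged to intervals of more than 200 bp, with loci listed at 0 in a library left out. Among loci above 0 in both libraries whose mean reached 100 FPKM, the 8 with the highest ratios were 274 to 8059 bp long and the nearest named locus lay within 2-fold in 7 of the 8. The first was an unsigned interval of 1163 bp on chromosome 18 (54143968 to 54145130) between Csnk1g3, a casein kinase, and Zfp608, at 49.3 and 3721 FPKM, a fold of 74.0. Csnk1g3 stood at 340 and 255 FPKM and Zfp608 at 25.2 and 34.5 FPKM. The second was an unsigned interval of 274 bp on chromosome 8 (83457984 to 83458257) between the adaptor gene Gab1 and the deubiquitinase gene Usp38, at 85.6 and 2990 FPKM, a fold of 34.5. RefSeq lists a pseudogene, Gm4891, and a long noncoding RNA, Gm31223, between those genes on GRCm38. The third was the unsigned locus on chromosome 12 that overlaps the very abundant one between Smek1 and Fbln5 (147 and 1965 FPKM), and its ratio is uncertain for that reason.

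The other 5 had log2 ratios from 3.10 to 3.55. An interval of 481 bp on chromosome 6 (128152816 to 128153296) between Tspan9 and Tead4, a transcription factor of the Hippo pathway, stood at 44.9 and 538 FPKM, while Tead4 stood at 77.0 and 77.0 FPKM. An interval of 658 bp on chromosome 18 (74462964 to 74463621) between Mbd1 and Scarna17 stood at 40.1 and 468 FPKM. The plus-strand locus of 6137 bp on chromosome 9 (97176121 to 97182257), the 1 with a strand sign among the 8, lies between Slc25a36 and Nmnat3 and stood at 38.9 and 433 FPKM. An interval of 665 bp on chromosome 9 (57331729 to 57332393) between Scamp5 and Cox5a stood at 56.1 and 557 FPKM. Cox5a, a subunit of cytochrome c oxidase, stood at 2309 and 2331 FPKM. An unsigned interval of 8059 bp on chromosome 12 (10158950 to 10167008) between Osr1 and Rdh14 stood at 93.2 and 807 FPKM. RefSeq lists 7 genes between those flanks, among them a pseudogene, Gm5182, of 8068 bp; the lengths are close, and the identity was not tested.

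Among loci above 0 in both libraries whose mean reached 100 FPKM, lower loci were fewer than higher ones (17 against 110), and the 8 lowest ratios reached less far from 0 than the 8 highest. The lowest ratio was that of a 96 bp interval on chromosome 18 (11801853 to 11801948) between Mib1 and Cables1, at 241 and 10.6 FPKM, 20.8-fold lower in CR. A minus-strand locus of 5951 bp on chromosome 5 (107513194 to 107519144) between Zfp644 and Tgfbr3, a TGF-beta co-receptor, stood at 215 and 27.5 FPKM, 7.58-fold lower. An interval of 238 bp on chromosome 2 (65116435 to 65116672) between Cobll1 and Ttc21b stood at 508 and 87.9 FPKM. An interval of 1003 bp on chromosome 5 (96403067 to 96404069) stood at 1866 and 494 FPKM. It lies between Ccng2, a cyclin G gene, and Cnot6l, a deadenylase that stood at 256 and 42.6 FPKM. A 72 bp interval on chromosome 10 (82418120 to 82418191) between Txnrd1 and Chst11 stood at 17927 and 5264 FPKM, the most abundant of the 8. The other 3 lie on chromosomes 1, X and 8 and had log2 ratios from -1.55 to -1.37. Of these 8 loci, 4 were under 200 bp, and the nearest named locus lay within 2-fold in 5.

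Neighbouring intergenic loci often formed chains, which may be pieces of 1 transcript and are not independent. With gaps of at most 10000 bp joined, the 2040 loci formed 1510 chains, of which 1197 held a single locus, 208 held 2 and 105 held 3 or more. The chain with the most loci had 14 in 42940 bp of chromosome 6 (31027837 to 31070776) between Copg2, a coatomer gene, and Mkln1. All 14 had a value in control, from 17.4 to 50.2 FPKM, and 12 were listed at 0 in CR, so that the sums were 347 and 48.0 FPKM. A chain of 10 loci in 13020 bp of chromosome 7 (82913946 to 82926965) between Akap13 and Klhl25 had a similar form. Its 10 loci stood between 19.6 and 58.5 FPKM in control and 9 were listed at 0 in CR, with sums of 347 and 28.9 FPKM. In these chains each locus was low, while the zeros fell together in CR.

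Other chains were alike in the libraries or higher in CR. A chain of 12 loci on chromosome 12 (15936438 to 15994516) between Trib2 and Lpin1, a phosphatidate phosphatase of lipid synthesis, summed to 380 and 818 FPKM, and 7 of its loci had a strand sign. A chain of 9 loci on chromosome 5 (123601847 to 123618539) between Rhof and Psmd9 summed to 330 and 247 FPKM. A chain of 7 short loci, 67 to 260 bp long, in 2175 bp of the X chromosome (138414660 to 138416834) between Atg4a and Nxt2 summed to 24335 and 22390 FPKM, the most abundant of the 8 chains with the most loci. A chain of 11 loci on chromosome 10 (21906040 to 22129811) between Sgk1 and Slc2a12 was listed at 0 throughout and made up 11 of the 15 loci at 0 in both libraries. Of 1509 chains whose mean reached 1 FPKM, 220 (14.6%) were higher by 2-fold or more and 268 (17.8%) lower by as much in CR. The shares over all loci, which were not joined to chains, were 12.8% and 22.2%.

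The longest interval, 296678 bp on the minus strand of chromosome 19 (8035275 to 8331952) between Lgals12 and Slc3a2, was listed at 86.8 and 0 FPKM. RefSeq lists 25 genes between those flanks, among them organic anion transporters of the Slc22a family, so the locus can span genes that the table does not name. A minus-strand interval of 262086 bp on chromosome 5 (10876309 to 11138394) stood at 41.6 and 37.7 FPKM. The third longest, 223772 bp on chromosome 10, is part of the chain at 0.

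Distance to the nearest named locus ran from 10004 to 6993426 bp, with a median of 100470 bp over the 2038 loci on chromosomes with named loci. Loci farther out were more abundant and shorter in these libraries. The 696 loci at 10 to 50 kb had medians of 67.3 and 70.3 FPKM and 624 bp, and the 318 beyond 500 kb had 170 and 172 FPKM and 396.5 bp. Of loci above 0 in both libraries, 13.8% were at least 2-fold higher and 5.32% at least 2-fold lower in CR at 10 to 50 kb, where the backgrounds over all loci were 11.0% and 11.4%. These shares were 13.4% and 1.36% at 100 to 500 kb, and 7.08% and 2.50% beyond 500 kb, with no steady course over distance. The 3 farthest were 2 loci on the X chromosome between Chm and Diap2 (117292551 to 117292721, 1274 and 477 FPKM; 117274750 to 117275457, 57.9 and 116 FPKM) and 1 on chromosome 14 between Spry2 and Tgds (111943783 to 111944049, 88.7 and 0 FPKM). At the edge of the rule, the 2 nearest members lay 10004 and 10062 bp from a named locus (113 and 75.1 FPKM; 363 and 288 FPKM). The 2 nearest loci left out lay at 9927 and 9925 bp (0 and 36.1 FPKM; 41.1 and 0 FPKM).

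The ratio of an intergenic locus showed little relation to that of its nearest named locus. Over 1351 pairs above 0 in both libraries Pearson's r of the log2 ratios was 0.04 and Spearman's rho 0.01. For unnamed loci within 10000 bp these were 0.15 and 0.16 over 863 pairs, and for overlapping loci 0.14 and 0.13 over 6698 pairs. With both members of a pair at a mean of at least 100 FPKM, Pearson's r was 0.00 over 711 pairs, 0.17 over 209 and 0.30 over 3160. These are descriptions across loci, which share the libraries and, in part, the same neighbour, since the 1351 pairs have 884 named loci. Between the libraries themselves the FPKM of the 1469 intergenic loci above 0 in both had a Spearman's rho of 0.93.

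Tpm3, the slow-fibre tropomyosin, stood at 1087 and 8810 FPKM, and the intergenic locus nearest to it (chromosome 3, 89930580 to 89930983) at 652 and 778 FPKM. It was the 1 locus whose nearest named locus was among 10 slow sarcomere genes. A minus-strand locus of 5192 bp on chromosome 7 (53601303 to 53606494) lies 25221 bp from Myod1, a myogenic transcription factor. It was listed at 33.7 and 0 FPKM, and Myod1 stood at 198 and 60.8 FPKM. It was the 1 locus next to any of 11 denervation genes, and 0 loci had a lipogenesis or adipocyte gene of a list of 14 as their nearest named locus.

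Imprinted genes are expressed from the copy of 1 parent in at least some tissues, and 11 intergenic loci had such a gene as the named locus on at least 1 side. The nearest named locus, not always the imprinted gene, lay 15339 to 613098 bp away. Whether these loci belong to an imprinted domain was not tested. On chromosome 12, a 94 bp interval (111554537 to 111554630) between Rian, a maternally expressed noncoding RNA, and Ppp2r5c stood at 400 and 1651 FPKM, a log2 ratio of 2.04, and a locus of 556 bp close by (111557665 to 111558220) at 76.8 and 121 FPKM. Rian itself stood at 38.8 and 74.2 FPKM. RefSeq lists 68 genes between Rian and Ppp2r5c on GRCm38, among them the microRNA Mir379, the noncoding RNA Mirg and Dio3, and whether these loci are any of them was not tested. On chromosome 17 a 229 bp interval between Map3k4 and Igf2r (12623914 to 12624142) stood at 885 and 1772 FPKM, while Igf2r stood at 881 and 451 FPKM. On chromosome 7, 3 loci lay between Peg3 (199.4 and 65.03 FPKM) and Zfp954. They stood at 16.1 and 0, 389 and 0, and 68.0 and 61.4 FPKM. The other 5 lay on chromosome 7 around Ube3a, Snrpn and Ndn, with log2 ratios from -0.42 to 0.57. Of the 9 loci above 0 in both libraries, 2 were at least 2-fold higher in CR, 0 at least 2-fold lower and 7 within 2-fold, where the backgrounds were 11.0% and 11.4%.

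Intergenic loci were not spread evenly over the chromosomes. They made up 21.5% of the 706 loci of the X chromosome and from 4.48% (chromosome 11) to 12.2% (chromosome 6) of the loci of each autosome. As a share of unnamed loci alone, they were 38.4% on the X chromosome and from 8.09% (chromosome 11) to 22.8% (chromosome 6) on the autosomes. The 152 X-chromosomal loci were more abundant, with medians of 236 and 241 FPKM, and shorter, with a median of 374.5 bp. The median distance to a named locus there was 229022 bp, against 54083 bp (chromosome 9) to 143275 bp (chromosome 8) on the autosomes. Their ratios did not lean further: 9 of 123 above 0 in both libraries were at least 2-fold higher and 2 at least 2-fold lower, with a median log2 ratio of 0.10. Among autosomes the highest medians were on chromosomes 12 (0.42, with 19 of 67 at least 2-fold higher and 0 lower) and 13 (0.35, with 8 of 71 and 0). The backgrounds over all loci above 0 in both libraries were 11.0% higher and 11.4% lower. Loci of the chain between Trib2 and Lpin1 are among those of chromosome 12, so these are not independent.

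**Figure D5:**
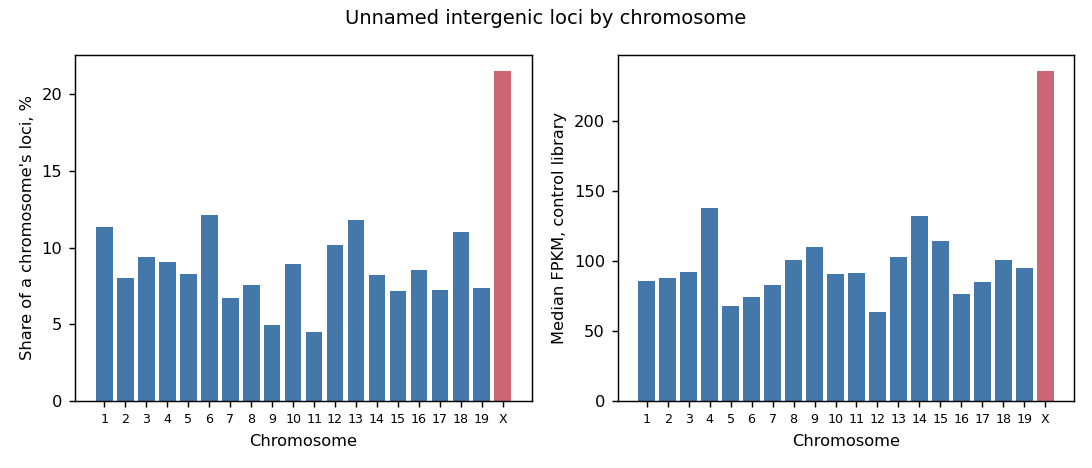
Unnamed intergenic loci by chromosome: their share of all loci of the chromosome in percent (left) and their median FPKM in control (right), with the X chromosome in red. The X chromosome stands at 21.5% and 236 FPKM, above each autosome; the mitochondrial genome (2 loci) and the Y chromosome (0 loci) are left out.

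To see what the later annotation lists around these loci, the named loci on either side were looked up in RefSeq's GRCm38 gene table, and the genes between them were counted. Both flanks were found in order for 1957 of the 2040 loci (95.9%). In 26 cases no RefSeq gene lay between the flanks. A protein-coding gene lay there for 1524 loci (77.9%), a long noncoding RNA for 1625 (83.0%) and a pseudogene for 1692 (86.5%), with a median of 10 genes. The gaps therefore hold many genes that the table of this study does not name, and being between the same flanks does not identify a locus.

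Gaps that hold a pseudogene were more common around abundant loci. A pseudogene lay between the flanks of 77.4% of loci with a mean under 100 FPKM, of 95.0% at 100 to under 1000 FPKM and of 97.2% at 1000 FPKM or more. A pseudogene whose symbol names a parent gene of this table lay there for 16.8%, 24.7% and 28.8%. The gaps of abundant loci also held more genes, a median of 12 against 8, and the part of this in the shares was not tested. Some loci above 1000 FPKM shared a gap with a copy of an abundant muscle gene. A 636 bp locus on chromosome 10 (86194540 to 86195175) between Hsp90b1 and Nt5dc3, with Fabp3-ps1 listed there, stood at 10326 and 14267 FPKM. The parent gene Fabp3, whose protein carries fatty acids in muscle cells, had 10993 and 14719 FPKM. Loci of 270 and 372 bp on chromosome 9 (79194581 to 79194850 and 79195013 to 79195384) between Slc17a5 and Col12a1 had 10569 and 16163 FPKM (the first) and 8503 and 9348 FPKM (the second). Aldoa-ps3 and Aldoa-ps4 are listed in that gap, and Aldoa, the muscle aldolase, stood at 121265 and 131425 FPKM. A 579 bp locus on chromosome 13 (21592820 to 21593398), with Cox5b-ps in its gap, stood at 6361 and 10462 FPKM, and Cox5b of cytochrome c oxidase at 1662 and 2419 FPKM. A 207 bp locus on chromosome 15 (99728721 to 99728927), with Uqcrh-ps1 in its gap, stood at 1135 and 3149 FPKM, and Uqcrh of complex III at 4297 and 8553 FPKM. These 4 gaps were chosen after their values were seen, and in each of them locus and parent were higher in CR. Other pairs ran in opposite directions: a locus of 466 bp on the X chromosome (76876671 to 76877136), with Rps24-ps3 in its gap, had 2818 and 2246 FPKM, and its parent Rps24, a ribosomal protein gene, 1541 and 2700 FPKM. Pairs were kept for loci with 1 such parent, a mean of at least 1000 FPKM, and locus and parent above 0 in both libraries. Over these 45 loci, with 39 parents, Spearman's rho between the log2 ratios of locus and parent was 0.16, too weak to be read as a relation. Whether reads of the parent genes were placed at these loci was not tested.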

How the data were processed

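Poly(A) RNA was fragmented, copied with random primers and sequenced as 76 bp paired-end reads, per the labels. Per the submitters' processing notes, the build was mm9 and the tools were Cuffdiff, Cufflinks and TopHat 1.2.0. Their options and annotation are not stated there. Each of 2 libraries has 1 deposited column of FPKM by locus, per the file headers. The lowest deposited value is 1, and 1 was subtracted, an offset inferred from the digits. Coordinates are those of the table on mm9, and no member sequence is printed.

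Distances were counted between interval ends to all named loci of a chromosome on either strand. Ratios used a pseudocount of 1 FPKM, and loci past 2-fold were counted where the mean reached 1 FPKM. The code was tested on simulated data. Named loci followed a rule: the 12 most abundant, the 8 highest and 8 lowest ratios, the 4 highest listed at 0 in each library, the 3 longest and farthest, the edge of the distance, the largest chains and neighbours of listed genes. Loci beside pseudogenes of muscle genes fall outside it. Both flanks were matched to RefSeq for 95.9% of members. Other distances, filters, pseudocounts, scalings and chains were tried. The members and lists were chosen with earlier results of these data known. Python 3.11.15, numpy 2.4.6, pandas 2.3.3, scipy 1.17.1 and matplotlib 3.10.9 were used. Gene neighbours came from RefSeq on GRCm38. Its coordinates were used to list the genes between the flanks and their lengths, and were not compared with those of mm9.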

Additional observations from a re-analysis of the deposited data

How the results depend on the processing

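With 1 library per group there are no replicates to leave out. No paired analysis was possible because each group has 1 library. Over 14 alternatives, 40 of 68 values stayed within a set margin, 27 moved and 1 reversed. The margin was wide for counts: 220 chains at least 2-fold higher in CR passed as unchanged beside 313 loci. For medians and shares of zeros it was an interval across loci, which are not independent. The reversed value was the median log2 ratio, 0.035 as reported, which was -0.045 after the columns were brought to equal sums with the 50 most abundant loci left out. These settings also change the number of loci counted, so shares are given. Loci at least 2-fold higher in CR (313 as reported, 15.5%) numbered 139 (13.6%) with a filter at 100 FPKM and 178 (12.1%) above 0 in both libraries. They numbered 110 (11.6%) with both, an alternative chosen after seeing the data, and 197 (14.8%) beyond 50000 bp. Loci at least 2-fold lower (466, 23.0%) numbered 60 (5.87%), 45 (3.06%), 17 (1.79%) and 269 (20.2%) in these settings and 268 (17.8%) as chains. The median log2 ratio was 0.17, 0.16 and 0.18 with the first 3 and 0.085 as chains. Over all loci the shares were 12.8% higher and 22.2% lower at a mean of at least 1 FPKM. They were 11.0% and 11.4% above 0 in both libraries, and 7.81% and 7.57% with both filters. With the distance at 50000 bp there were 1344 members, of median length 515 bp, with 19.4% listed at 0 in CR and 8.23% and 10.6% of summed FPKM. At 5000 bp these shares of FPKM were 12.8% and 15.6%, without the mitochondrial loci 10.2% and 12.9%, and for intervals of at least 200 bp, also chosen after seeing the data, 6.37% and 8.17%. As chains the median length was 698 bp, with 6.09% listed at 0 in control and 14.6% in CR. The depth of the libraries is unknown, so low and short loci carry no stated precision.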

Other observations

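Loci with a strand sign differed from the rest in level and in the share past 2-fold, and little in the median ratio. They were also longer, and FPKM is divided by length. The part of length in the difference of level was not tested. The 272 signed loci had medians of 45.9 FPKM in control and 46.9 FPKM in CR, and the 1768 unsigned loci had 112 and 115 FPKM. Among signed loci above 0 in both libraries, 35 of 178 (19.7%) were at least 2-fold higher in CR and 10 (5.62%) at least 2-fold lower. Their median log2 ratio was 0.19, and the backgrounds over all loci were 11.0% higher and 11.4% lower. Among unsigned loci 143 (11.1%) were higher and 35 (2.71%) lower of 1291, with a median of 0.15. Plus-strand and minus-strand loci lay close together, at medians of 55.2 and 56.7 FPKM and of 41.0 and 42.3 FPKM. The 15 loci listed at 0 in both libraries all carried a strand sign.

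The 50 loci of 10000 bp or more had 7 at least 2-fold higher and 0 at least 2-fold lower in CR among 36 above 0 in both libraries, beside the same backgrounds of 11.0% and 11.4%. They held 7.60% of the intergenic FPKM in control and 9.63% in CR, most of it from the 2 mitochondrial loci, which alone held 7.13% and 9.11%. Among all intergenic loci, 171 overlapped another one, so that 1 stretch of transcript can be counted more than once.

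Values above 0 were also multiplied by interval length. The product of FPKM and interval length in kilobases was 13.6 at percentile 5 of the positive values in control and 18.5 in CR. It is at best a rough stand-in for the amount of fragments, since intervals include introns and short ones rest on a corrected length. The positive loci also differ between the libraries. The median products were 61.2 and 96.9. Values did not fall on whole multiples, so no fragments were counted from them.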
